A study of Drosophila melanogaster with 12 samples.

Results

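The PDGF/VEGF-like signalling family of Drosophila melanogaster comprises the secreted ligands Pvf1, Pvf2 and Pvf3 and their receptor Pvr, and its transcripts were followed through wing imaginal discs with activated Notch, loss of scribble, or both. The members were the rows that carry these symbols in the deposited count table, 4 of 17716 symbols, and all 4 passed the filter on low counts that left 9444 genes for testing. Wing imaginal discs are sheets of larval epithelium from which the wing and part of the thorax of the adult develop. They were taken 6 days after egg laying and pooled, 60 discs to a pool, and messenger RNA was sequenced from 12 pools, 3 in each of 4 groups.

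The control group (WT), the activated Notch group (N) and the combined group (NS) shared 1 background. It holds abxUbx-Flp on a y-, w- chromosome over w-, the Act>y+>Gal4 driver with UAS eGFP, and FRT82B tubGal80. N also carried UAS Nicd, a transgene for the free intracellular part of Notch, over the driver chromosome. NS carried UAS Nicd and, opposite FRT82B tubGal80, a FRT82B chromosome with the scrib1 mutation. The scribble mutant group (S) was w- / w- with FRT82B scrib1 over the deficiency Df(3R)BSC752, and its genotype lists neither Flp, Gal4, eGFP nor Gal80. S discs were thus mutant throughout, whereas Gal4 acts only in cells where Flp has removed the y+ cassette and Gal80 is absent, and in NS scrib1 lies over a chromosome that bears no scrib1. Cells homozygous for scrib1 arise there only by Flp-driven recombination, so N and NS discs mix cells of different genotype, in shares not given in the sources used here. In every comparison with S the driver background changes together with the mutation, and the contributions of these cannot be told apart. In the labels, the genotype given for WT replicates 2 and 3 names UAS Nicd as well, although their condition reads as the wild-type control. Notch transcripts, to which the transgene can add reads, measured 649, 885 and 707 CPM across the WT libraries and 2236, 2015 and 2016 CPM across the N libraries.

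Pvr is a receptor tyrosine kinase related to the PDGF and VEGF receptors of vertebrates, and the Pvf proteins are secreted growth factors of the same cystine-knot family. The activated receptor signals through the Ras and MAPK cascade, through PI3K, and through adaptors and exchange factors that activate the GTPase Rac and so the actin cytoskeleton. In flies the pathway is known for guiding border cells in the ovary, for the migration and survival of haemocytes (the blood cells), and for closure of the thorax from the wing discs.

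In BDGP6, the Ensembl name of the build dm6, Pvf1 (FBgn0030964) lies on chromosome X at 18832682 to 18842901 on the plus strand. Pvf2 (FBgn0031888) lies on arm 2L at 7069536 to 7084635 and Pvf3 (FBgn0085407) on the same arm at 7098188 to 7157695, both on the minus strand with 13552 bases between them. Pvr (FBgn0032006) lies farther along 2L at 8220980 to 8239878, also on the minus strand. Their annotated exons cover 2783, 2102, 6237 and 6653 bases. Only Pvf2 shares exon bases with another gene, 11 bases (0.52% of its exons) with Ugt307A1 on the opposite strand, which the table lists as CG11289 with at most 4 counts in any library.

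Levels are expressed in CPM, that is counts relative to the TMM-scaled library size, for replicates 1, 2 and 3 in turn, and as mean ± SD (n = 3). Changes are log2 ratios ± SE from edgeR's quasi-likelihood test fitted over all 12 libraries, and calls were made where the Benjamini-Hochberg adjusted p lay below 0.05. Library totals were 21024017 to 42407447 counts, and a family member had 90 to 6061 counts in a library. The wing disc markers nub, vg, ap and the rest of a list of 9 were all detected in every library, with a summed level of 979 to 3238 CPM that was lowest in NS replicate 3. Libraries also differed from their group mean by gene length. The Spearman rho of that deviation with exon length, across 9379 genes, which are not independent replicates, was -0.72 in NS replicate 3 and from -0.43 (S replicate 3) to 0.64 (NS replicate 1) in the other 11 libraries. Transcripts of scrib were 347, 448 and 370 CPM in WT, 208, 200.5 and 129 CPM in S, and 394, 434 and 87.1 CPM in NS. The scrib difference from WT was not called in S (-1.12, edgeR adjusted p = 0.0949) or in NS (-0.35, 0.584), so the mutation rests on the genotype text. The labels do not say that the pools came from separate crosses, so p-values measure the spread between pools.

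Pvf1, the ligand known from border cell guidance, had the largest S to WT change of the family and rose in both groups that carry scrib1. Its level was 10.5, 9.66 and 5.05 CPM in WT (8.42 ± 2.95), and 6.65, 4.58 and 3.91 CPM in N (5.05 ± 1.43). In S it was 40.4, 45.4 and 73.5 CPM (53.1 ± 17.8), and in NS 38.2, 29.0 and 23.0 CPM (30.05 ± 7.62). Every S and NS library lay above every WT and N library, WT and N overlapped, and all NS libraries lay below the lowest S library, NS replicate 1 closest to it. The rise of Pvf1 was 6.30-fold in S against WT (log2 2.66 ± 0.348, edgeR adjusted p = 0.000424) and 3.57-fold in NS against WT (1.84 ± 0.339, edgeR adjusted p = 0.00369). NS against N gave 2.57 ± 0.350 (edgeR adjusted p = 0.00164) and S against N 3.40 ± 0.361 (edgeR adjusted p = 0.000171). Pvf1 did not pass in N against WT (-0.74 ± 0.336, edgeR adjusted p = 0.309), nor in NS against S (-0.82 ± 0.329, edgeR adjusted p = 0.230), where the 95% interval ran from -1.55 to -0.10. With WT replicate 1 as the sole WT library, the NS to WT value of Pvf1 was 1.51 and its call was lost (edgeR adjusted p = 0.106). In whole-disc RNA a change in the number of cells that make a transcript and a change in the transcript per cell cannot be told apart, here and in all that follows.

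Pvf2, which with Pvf3 is known for its part in haemocyte migration and survival, rose in S, and no rise against the control was detected in NS. The level of Pvf2 was 29.4, 29.5 and 27.55 CPM in WT (28.8 ± 1.10) and 15.4, 10.8 and 12.7 CPM in N (12.9 ± 2.31). It reached 53.7, 67.4 and 122.9 CPM in S (81.3 ± 36.6) but 36.9, 29.5 and 28.6 CPM in NS (31.65 ± 4.54). No N library reached the WT range, every S library lay above all others, and NS overlapped WT. Pvf2 rose 2.82-fold in S against WT (log2 1.50 ± 0.269, edgeR adjusted p = 0.00306), with 122.9 CPM in S replicate 3 as its highest value; without that library the change was 1.06 (edgeR adjusted p = 0.00268). The call was lost with WT replicate 1 as the sole WT library (1.48, edgeR adjusted p = 0.103).

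Against the same control Pvf2 in NS differed by only 0.14 (95% interval -0.45 to 0.72, edgeR adjusted p = 0.726). It fell by 1.36 ± 0.268 from S to NS (edgeR adjusted p = 0.0179), or by 0.92 without S replicate 3, and the call was lost without NS replicate 2 (edgeR adjusted p = 0.0776). From N to NS it rose by 1.29 ± 0.269 (edgeR adjusted p = 0.0140), a call lost without N replicate 2 (0.0705) or N replicate 3 (0.0709).

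Pvf2 was also the member called in N against WT, where it fell by 1.16 ± 0.268 (edgeR adjusted p = 0.0458). This call was close to the threshold and held in 9 of 23 alternatives. It was lost when any WT library, any N library, S replicate 2, NS replicate 1 or NS replicate 2 was left out, with edgeR adjusted p from 0.0642 to 0.210, while the change stayed between -1.29 and -1.03.

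Pvf3, the least abundant ligand per kb of exon, resembled Pvf2 in its order of levels. Its level was 4.96, 4.49 and 6.47 CPM in WT (5.31 ± 1.04), 2.59, 2.37 and 2.43 CPM in N (2.46 ± 0.114), and 17.9, 17.8 and 15.1 CPM in S (16.9 ± 1.58). NS gave 6.89, 6.99 and 2.69 CPM (5.53 ± 2.46). All S libraries lay above all others and all N libraries below all others, whereas NS spanned the WT range, with NS replicate 3 far below the other two. Pvf3 rose 3.19-fold in S against WT (log2 1.67 ± 0.326, edgeR adjusted p = 0.00462), a call lost with WT replicate 1 as the sole WT library (1.78, edgeR adjusted p = 0.0951).

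The NS to WT difference of Pvf3 was 0.06 (95% interval -0.65 to 0.76, edgeR adjusted p = 0.909). It fell by 1.62 ± 0.326 from S to NS (edgeR adjusted p = 0.0208), a call lost without S replicate 1 (0.0561) or S replicate 2 (0.0604). In N against WT the change of -1.11 ± 0.324 did not pass (edgeR adjusted p = 0.104), nor did the 1.16 ± 0.325 of NS against N (edgeR adjusted p = 0.0542). Leaving out NS replicate 3 brought both under the threshold, at -1.10 (edgeR adjusted p = 0.00568) and 1.48 (edgeR adjusted p = 0.00146), as did correcting for exon length (-1.14 and 1.59, edgeR adjusted p = 0.00481 and 0.000343).

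Pvr, the receptor, varied less than its ligands. Its level was 111, 114.6 and 83.4 CPM in WT (103.0 ± 17.1), 86.3, 67.5 and 73.3 CPM in N (75.7 ± 9.63), 126, 139 and 163 CPM in S (142 ± 18.7), and 126, 109 and 65.3 CPM in NS (100.1 ± 31.2). S lay above WT and N in every library, and NS reached from below every N library to the level of the lowest S library. Only S against N was called (log2 0.91 ± 0.231, edgeR adjusted p = 0.0237), and that call was lost without any 1 N library, S replicate 2 or S replicate 3, with adjusted p from 0.0518 to 0.0954. For S against WT the value was 0.47 (95% interval -0.04 to 0.97, edgeR adjusted p = 0.159). Leaving out NS replicate 3 brought it under the threshold (edgeR adjusted p = 0.0317), as did the correction for exon length, which raised it to 0.83 (edgeR adjusted p = 0.0146).

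The receptor's other differences were -0.45 in N against WT, -0.04 in NS against WT, 0.40 in NS against N and -0.51 in NS against S (edgeR adjusted p = 0.384, 0.902, 0.259 and 0.291). Of these, NS against N passed without NS replicate 3 (0.62, edgeR adjusted p = 0.0450) and with the length correction (0.96, edgeR adjusted p = 0.0160). All 4 members had their lowest NS value in NS replicate 3.

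**Figure D1:**
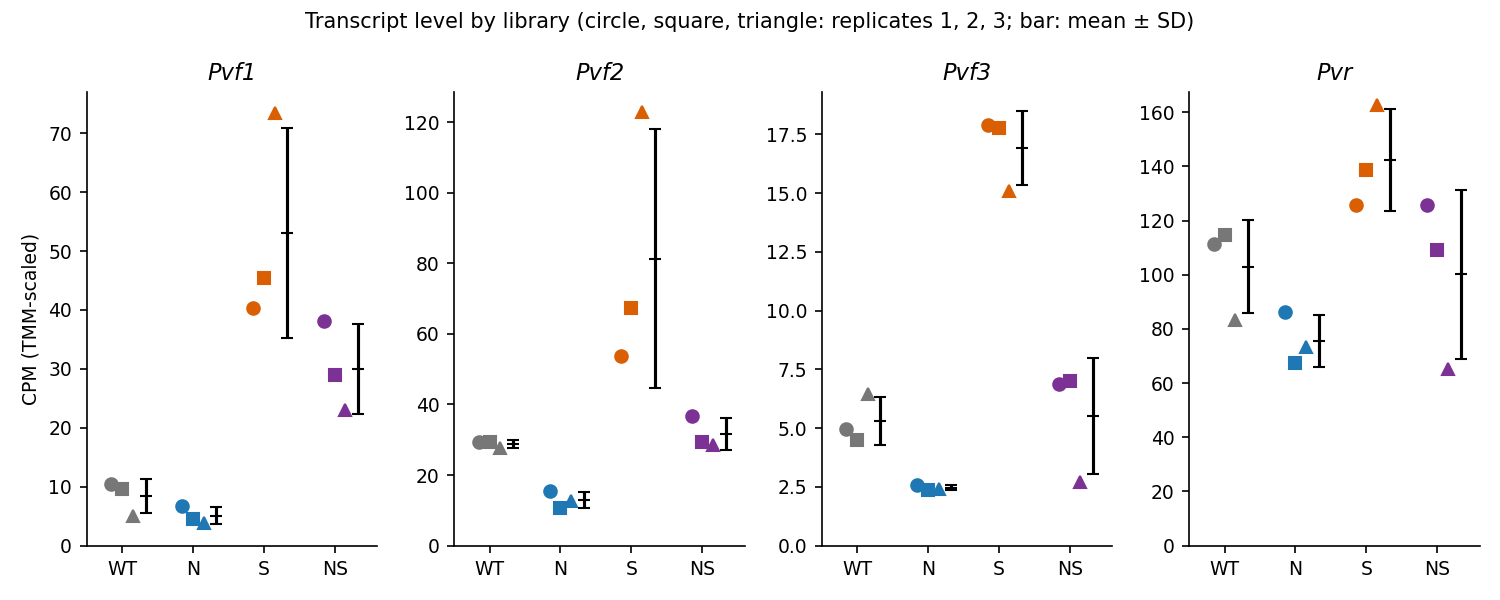
Transcript level (CPM, linear axes from 0) of Pvf1, Pvf2, Pvf3 and Pvr in each library, with circles, squares and triangles for replicates 1, 2 and 3 and black bars for the mean ± SD of 3 libraries. Pvf1 is high in both S and NS, Pvf2 and Pvf3 are high in S with NS near WT, and Pvr spans 65.3 to 163 CPM over all libraries.

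The members' calls were set beside the share of all tested genes called in each comparison. In S against WT, 12.7% of the 9444 genes were called higher and 10.7% lower, and 3 of the 4 members were higher and 0 lower. S against N gave 8.21% higher and 6.12% lower over all genes, with all 4 members higher. In NS against WT, 13.9% were called higher and 10.7% lower, and 1 member (Pvf1) was higher. NS against N gave 4.22% higher and 3.66% lower, with 2 members (Pvf1 and Pvf2) higher. NS against S gave 1.57% higher and 2.27% lower, with 2 members (Pvf2 and Pvf3) lower. N against WT gave 1.09% higher and 2.08% lower, with 1 member (Pvf2) lower. These comparisons share groups and so are not independent. The order of group means was N, WT, NS, S for each ligand and N, NS, WT, S for Pvr. Neighbours in that order that were not called apart were N and WT, and NS and S, for Pvf1; WT and NS for Pvf2; N and WT, and WT and NS, for Pvf3; and all neighbours for Pvr.

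The interaction asks whether adding scrib1 to activated Notch changed a transcript as much as S differed from WT. Over all genes 0.858% had a positive and 0.466% a negative interaction call by edgeR, and 0 members were called, also at an unadjusted p under 0.05 and with DESeq2. The value was -0.08 for Pvf1 (95% interval -1.12 to 0.95), -0.20 for Pvf2 (-1.03 to 0.62), -0.51 for Pvf3 (-1.51 to 0.49) and -0.06 for Pvr (-0.78 to 0.65). These intervals leave room for differences of 1.5-fold or more in either direction for every ligand except upward for Pvf3, where the upper bound is 0.49. The NS to N and S to WT changes behind them were 2.57 and 2.66 for Pvf1, 1.29 and 1.50 for Pvf2, 1.16 and 1.67 for Pvf3, and 0.40 and 0.47 for Pvr.

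**Figure D2:**
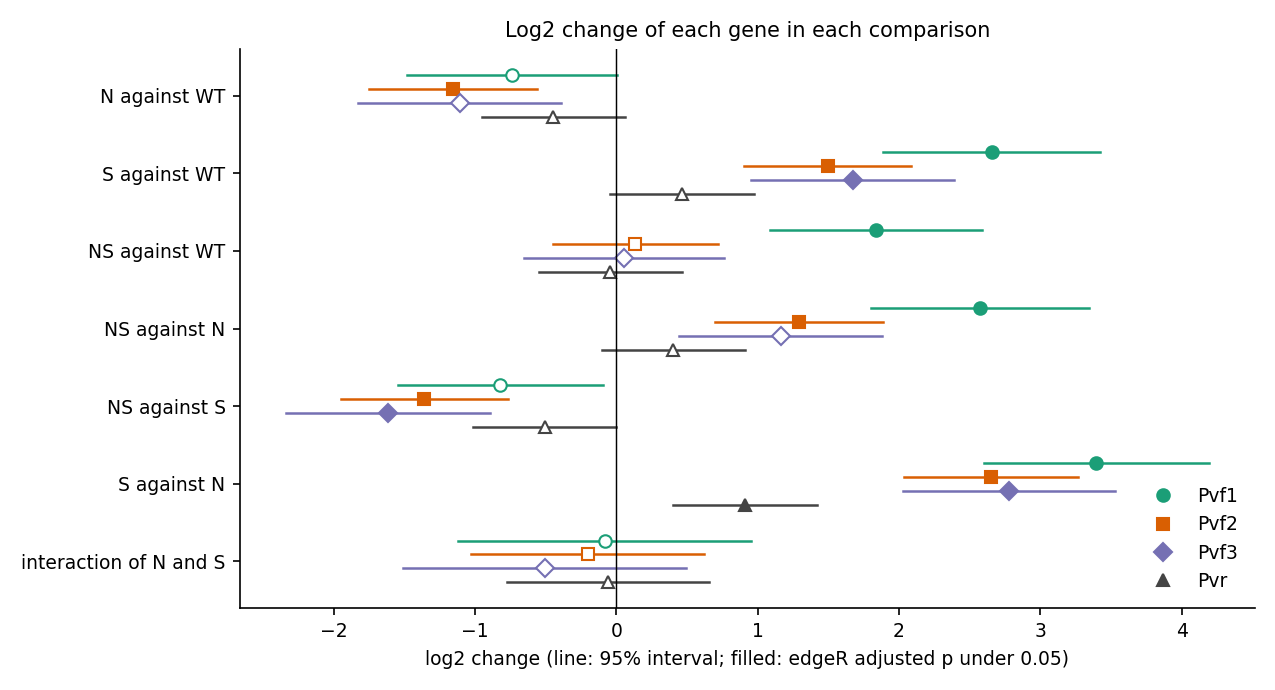
Log2 change (horizontal axis) of each family gene in 6 comparisons and the interaction, with lines for 95% intervals and filled symbols for an edgeR adjusted p under 0.05. Pvf1 stands to the right in every comparison of a group with scrib1 against WT or N, while Pvf2 and Pvf3 lie near 0 in NS against WT.

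Levels of different genes were compared per kb of exon. Pvf2 made up most of the summed ligand level in every library, with a mean share of 78.2% in WT, 73.7% in N, 63.0% in S and 56.7% in NS. The share of Pvf1 was 20.4%, 19.1% and 11.4% in WT and 23.6%, 23.0% and 17.9% in N. It was 33.8%, 31.9% and 30.3% in S and 42.4%, 40.7% and 37.1% in NS. No library of WT or N reached the S range and no S library reached the NS range, so the share of Pvf1 was highest in NS, although Pvf2 still had the larger share there. The difference between NS and S was 8.09 percentage points (exact two-sided permutation p = 0.1, the smallest that 3 against 3 allows; adjusted p = 0.157 over 36 such tests). Pvf3 contributed 4.91%, 4.80%, 5.01% and 3.25% on average in WT, N, S and NS.

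The summed level of the 3 ligands was 17.6 ± 1.42 CPM per kb in WT, 8.36 ± 1.55 in N, 60.5 ± 23.6 in S and 26.7 ± 5.13 in NS. That of Pvr was 15.5 ± 2.58, 11.4 ± 1.45, 21.4 ± 2.82 and 15.04 ± 4.69 CPM per kb. The ratio of summed ligand to receptor level was 1.11, 1.06 and 1.27 in WT, 0.780, 0.705 and 0.711 in N, 2.27, 2.46 and 3.57 in S, and 1.71, 1.56 and 2.27 in NS. Every group's ratios lay apart from those of every other group, the nearest being NS replicate 3 at 2.272 and S replicate 1 at 2.274. Each of these pairwise differences had an exact two-sided permutation p = 0.1, the smallest possible. The ratio sets the short Pvf1 and Pvf2 against the longer Pvr and was not corrected for the trend with exon length. NS replicate 3 and S replicate 3, with the lowest rho of all libraries (-0.72 and -0.43), had the highest ratio of their groups. In WT and N the library with the lowest rho did not have the highest ratio. The part of gene length in the ratio was not tested.

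**Figure D3:**
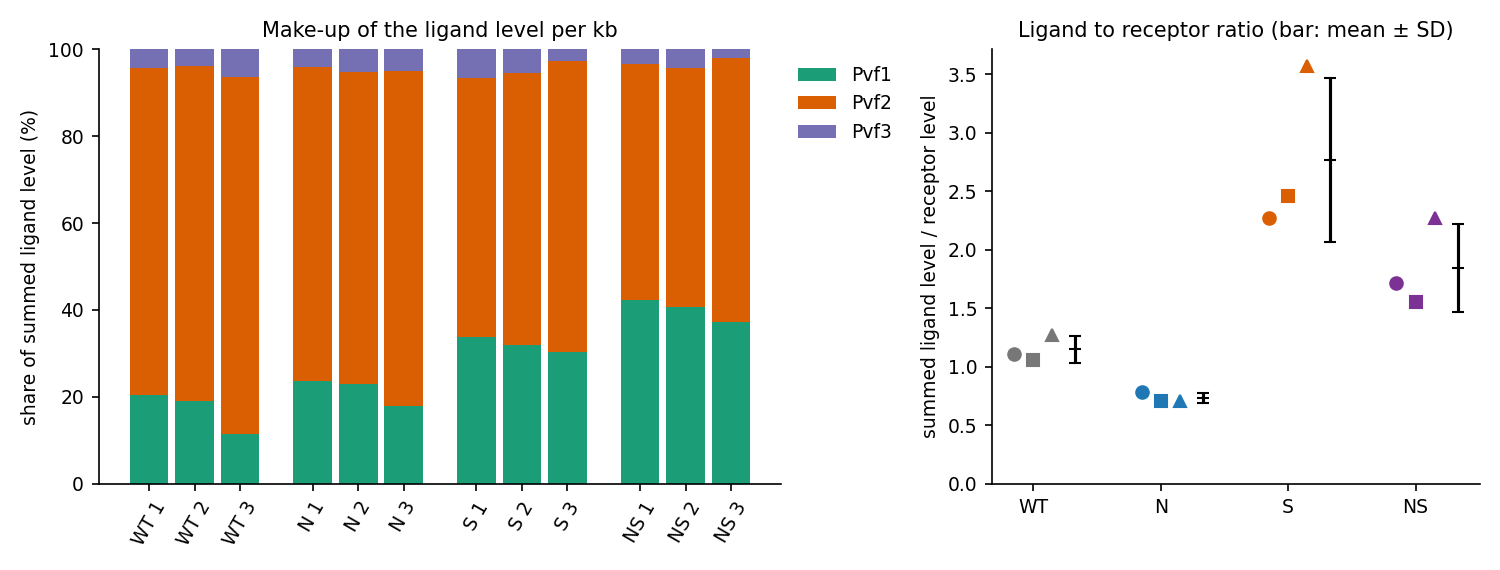
Left, the share (%) of Pvf1, Pvf2 and Pvf3 in their summed level per kb of exon in each library; right, the summed ligand level divided by the Pvr level per kb, 3 libraries a group with mean ± SD. Pvf1 takes 11.4% to 23.6% in WT and N and 30.3% to 42.4% in S and NS, and the ratio is lowest in N and highest in S.

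Among 19 receptor tyrosine kinases ranked by level per kb, Pvr was the 7th in WT and N and the 6th in S and NS. In S its 21.4 ± 2.82 CPM per kb stood between Cad96Ca (27.4 ± 3.36) and otk (15.01 ± 5.27). In NS Pvr (15.04 ± 4.69) and its lower neighbour otk (12.5 ± 7.70) did not differ beyond their spread. Of 14 ligands of these receptors, spi, a ligand of the EGF receptor, was the most abundant in all groups. Pvf2 was the 3rd in WT, the 4th in N and the 2nd in S and NS. Pvf1 moved from the 7th place in WT and N to the 5th in S and the 4th in NS, and Pvf3 was the 9th in all 4 groups. In NS the levels of Pvf2 (15.1 ± 2.16 CPM per kb) and of the membrane-bound ligand Ephrin (13.8 ± 7.57), next in order, overlapped within their SDs. So did ths (22.6 ± 9.44), vn (20.0 ± 7.22), Pvf1 (19.1 ± 6.41) and Ephrin (15.6 ± 1.41) in S. The ligands vn, pyr and ths, above Pvf1 in WT at 11.25, 8.78 and 7.68 CPM per kb, were at 5.46, 4.14 and 3.85 in NS, beside 10.8 ± 2.74 for Pvf1.

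Genes next to the members were examined for the same pattern. Nuf2, a kinetochore gene beside Pvf2, rose in both S against WT (log2 0.76 ± 0.155, edgeR adjusted p = 0.00589) and NS against WT (0.80 ± 0.155, edgeR adjusted p = 0.00463), where Pvf2 was called in the first and not in the second. CG7101 and htk beside Pvf1, and Snx6 beside Pvr, had no call in any of the 7 comparisons, and Spn28F on the other side of Pvr is listed at 0 in every library.

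The pattern of each member over the 12 libraries was set against 6832 tested genes with a mean of at least 5 CPM, by Pearson r of log2 CPM (prior count 2). The points share their libraries, group structure and scaling, so r is a description. Closest to Pvf1 were Pax, the focal adhesion adaptor paxillin (r = 0.986), CG8303 (0.984), Mmp1, a matrix metalloproteinase (0.982), scaf (0.976) and Wbp2 (0.973). The mean level of Pax was 103 CPM in WT, 274.5 in S and 225 in NS, and that of Mmp1 was 172 CPM in WT, 773 in S and 455 in NS. These genes were chosen for their likeness to a member over the same libraries, so their group differences follow from the choice.

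Closest to Pvf2 were CG11426 (r = 0.968), Vinc, the actin-linking protein vinculin (0.958), CG13117 (0.957), CG13124 (0.95) and Arp3, a subunit of the actin-nucleating Arp2/3 complex (0.948). Pvf3 was closest to Gie (0.962), CG10625 (0.949), CG43394 (0.947), CG32512 (0.946) and nvy (0.939). Of these, CG43394 had a mean level of 20.0 CPM in WT, 211 in S and 12.2 in NS. Pvr was closest to Lmpt (0.964), cindr (0.957), Vrp1 (0.956), CG32982 (0.95) and Hrs (0.948). The lists depended on NS replicate 3 and on the kind of correlation. Without NS replicate 3, 4, 2, 1 and 2 of the 5 genes stayed among the 5 closest to Pvf1, Pvf2, Pvf3 and Pvr. With Spearman correlation over all 12 libraries, 3, 1, 2 and 1 stayed. Among the members themselves r was 0.882 for Pvf1 with Pvf2, 0.893 for Pvf2 with Pvf3 and 0.761 for Pvf1 with Pvr.

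Genes that relay or respond to receptor tyrosine kinase signals did not move as 1 block. The counts that follow stand beside the shares of all tested genes given above, 12.7% called higher and 10.7% lower in S against WT, and 13.9% and 10.7% in NS against WT; a count of 1 in a list of 10 or 12 is near or below those shares. Of 10 tested genes in the Rac arm of the receptor, 4 rose and 0 fell in S against WT: the adaptor Shc (log2 0.50 ± 0.0954, edgeR adjusted p = 0.00419), the GTPases Mtl (0.47 ± 0.104, 0.00882) and Rac1 (0.35 ± 0.106, 0.0370), and Ced-12 (0.61 ± 0.168, 0.0252), a partner of the Rac exchange factor mbc. The list's median was 0.21 beside 0.04 for all genes. In this list 2 rose without WT replicate 1 or 2 or S replicate 1 or 2, and 5 rose and 1 fell without NS replicate 3. With library totals in place of TMM scaling, 1 of the 10 rose, beside 825 of all 9444 genes. In NS against WT, 0 rose and 1 fell, the adaptor dock (-0.74 ± 0.242, edgeR adjusted p = 0.0466), a call lost without any 1 library of WT, N or S. The median there was -0.10 beside 0.03.

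Of 12 genes of the Ras and MAPK cascade, 1 rose in S against WT, the adaptor drk (0.57 ± 0.162, edgeR adjusted p = 0.0280), and 0 fell, with a median of -0.28. That call was lost without any 1 WT library, without S replicate 3, or with library totals in place of TMM scaling. Without NS replicate 3, 8 fell. In NS against WT, 0 rose and 2 fell, Ras85D (-0.41 ± 0.103, edgeR adjusted p = 0.0159) and the scaffold ksr (-0.76 ± 0.220, 0.0297), with a median of -0.42. The number that fell was 1 without WT replicate 1 or 3, 0 without WT replicate 2 and 5 without NS replicate 3, and 1 rose without S replicate 3.

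Among 8 genes known to respond to MAPK signalling, 0 rose and 4 fell in NS against WT. They were the feedback inhibitors aos (-1.45 ± 0.277, edgeR adjusted p = 0.00442) and kek1 (-2.13 ± 0.419, 0.00511), the ETS factor pnt (-1.21 ± 0.290, 0.0130), and edl, an antagonist of ETS factors (-1.48 ± 0.249, 0.00209). The list's median was -1.11 beside 0.03 for all genes, and with any 1 library left out 3 to 5 fell. In N against WT 2 of the 8 fell, beside 2.08% of all genes, and 0 without WT replicate 1 or 2 or any 1 N library. Mean levels in WT, N and NS were 39.6, 14.8 and 14.55 CPM for aos and 34.3, 15.55 and 12.3 for edl. They were 153, 114 and 34.9 CPM for kek1 and 57.8, 52.7 and 25.05 for pnt. In S against WT, 0 rose and 2 fell, edl (-1.27 ± 0.247, edgeR adjusted p = 0.00457) and kek1 (-1.26 ± 0.408, 0.0464), with a median of -0.22. The number that fell was 1 without any 1 library other than S replicate 3, NS replicate 2 or NS replicate 3; 1 rose without S replicate 3 and 2 without NS replicate 3.

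Of 10 tested genes of PI3K and TOR signalling, 1 rose in each comparison and 0 fell. It was the kinase S6k in S against WT (0.72 ± 0.236, edgeR adjusted p = 0.0499) and the GTPase Rheb in NS against WT (0.57 ± 0.163, 0.0293). The S6k call was at the threshold: 0 rose without any 1 library other than NS replicate 1 or NS replicate 3, and without the latter 2 rose and 2 fell. The Rheb call was lost without any 1 WT library, and 1 gene fell without NS replicate 1 or NS replicate 3. With library totals in place of TMM scaling, the S6k and Rheb calls were both lost.

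In the JNK pathway, the stress kinase cascade that Mmp1 and scaf respond to, 5 of 15 genes rose and 1 fell in both S and NS against WT. Those that rose were Ilp8, a secreted hormone of damaged discs, the transcription factor Ets21C, scaf, Mmp1 and the TNF receptor grnd, and the other TNF receptor, wgn, fell in both. Ilp8 went from 3.56 CPM in WT to 505 in S (7.15 ± 0.635, edgeR adjusted p = 4.09e-05) and 1022 in NS (8.16 ± 0.663, 2.70e-05). It was also high without scrib1, at 341, 204 and 184 CPM in the N libraries, where Pvf1 was not raised. Ets21C rose by 3.05 ± 0.436 in S and 3.37 ± 0.442 in NS (edgeR adjusted p = 0.000759 and 0.000472). The list's medians were 0.18 and 0.21, near those of all genes (0.04 and 0.03), and in S against WT 7 rose and 2 fell without NS replicate 3. The JNK phosphatase puc was not called, at 0.74 and 0.51 (edgeR adjusted p = 0.0558 and 0.158).

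**Figure D4:**
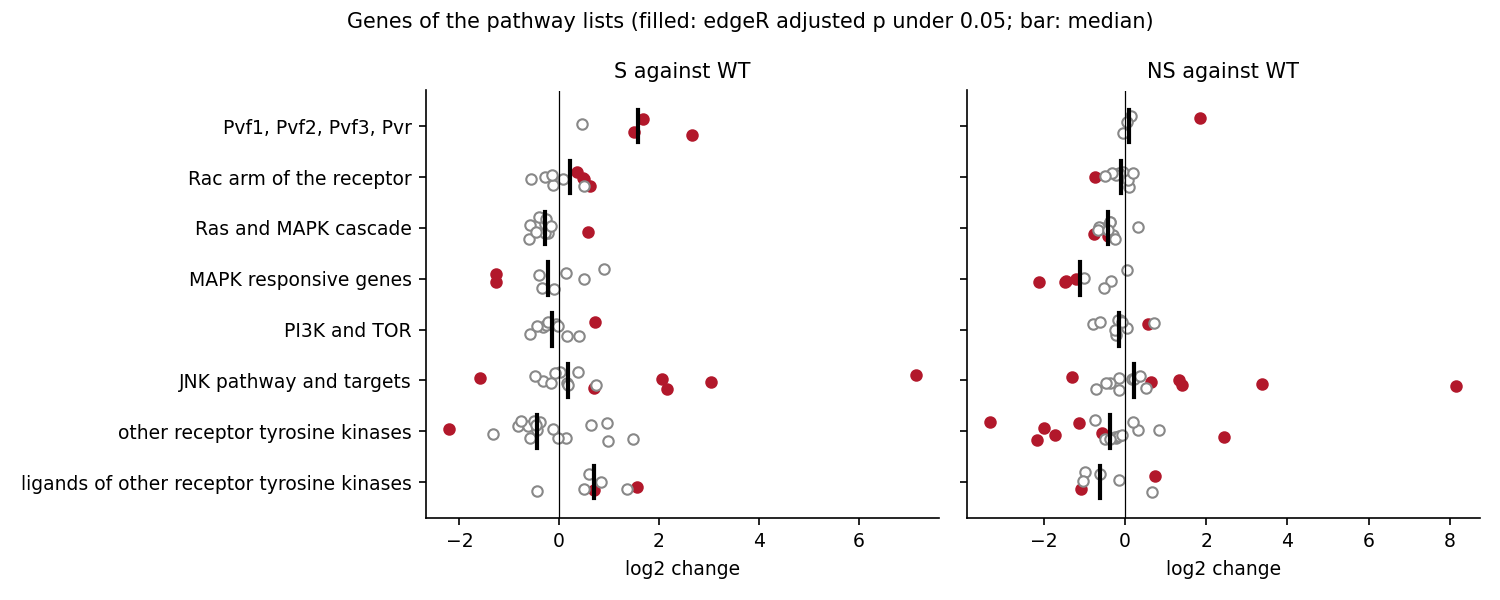
Log2 change (horizontal axis) of each tested gene of the pathway lists in S against WT and NS against WT, filled red where the edgeR adjusted p is under 0.05, with a bar at each list's median; vertical scatter within a row has no meaning. The family row lies right of 0 in S, with 3 of 4 genes called, and has only Pvf1 called in NS; 4 of 8 MAPK responsive genes are called lower in NS.

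Haemocytes express and need Pvr, and their markers differed in direction in S. Those called higher in S against WT were Hml, Pxn, NimC1 and Sr-CI, while ush fell from 90.0 CPM in WT to 32.3 in S (log2 -1.48, edgeR adjusted p = 0.00955). Ppn, the most abundant of the list, was 754 CPM in WT and 443 in S, and was not called (edgeR adjusted p = 0.111). Hml, a haemocyte-secreted clotting protein, was 16.2, 12.9 and 22.8 CPM in WT, 39.1, 110 and 166 CPM in S and 23.6, 11.03 and 20.7 CPM in NS. Pxn, peroxidasin, was 16.0, 11.3 and 23.6 CPM in WT, 23.9, 68.1 and 115.5 CPM in S and 49.8, 30.2 and 39.0 CPM in NS. NimC1, a phagocytic receptor, was 2.25, 2.46 and 4.51 CPM in WT, 4.10, 8.77 and 25.9 CPM in S and 0.608, 0.542 and 0.687 CPM in NS. Within S, these 3 markers were lowest in replicate 1 and highest in replicate 3, as were Pvf1, Pvf2 and Pvr. Pvf3 was lowest in replicate 3. Of the other listed markers, Sr-CI, He and eater shared the order of Hml, Pxn and NimC1, and ush, Ppn, crq, srp and gcm did not. Across the S replicates ush was 38.9, 34.2 and 23.85 CPM, and Ppn was 394, 540 and 394 CPM. The order was not particular to haemocyte markers: outside the list, Ilp8, Mmp1, scaf and moody also rose from S replicate 1 to S replicate 3, while elav fell. How many of all genes share this order was not counted.

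Of the 11 haemocyte markers 4 rose and 1 fell in S against WT, and 0 rose and 3 fell in NS against WT. The number that rose in S was 1 without WT replicate 1 or 2 and 2 without S replicate 3, and 2 fell without NS replicate 3; in NS 1 rose without S replicate 1 or 3. The summed marker level, with Ppn as its largest part, was 856 to 1019 CPM in WT, 527 to 778 in N, 553 to 846 in S and 242 to 532 in NS, and none of the 11 was at 0. The S sums lay below the WT sums, although Hml, Pxn, NimC1 and Sr-CI were called higher in S. The part of haemocyte RNA in the ligand levels was not tested. Without S replicate 3 the S to WT change of Pvf1 was 2.34 (edgeR adjusted p = 0.00129), beside 2.66 with all libraries. That of Pvf2 was 1.06 without it and 1.50 with all libraries.

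Markers of tracheal cells, and of neurons and glia, had higher sums in S than in WT in every library. The summed level of 5 tracheal markers was 989 to 1176 CPM in WT, 833 to 1010 in N, 1552 to 1907 in S and 1084 to 1911 in NS. Of these, Gasp and serp rose and btl and trh fell in both S and NS against WT; in S the number that fell was 1 without any 1 WT, N or S library and the number that rose was 1 without any 1 WT library or S replicate 3. In NS the number that rose was 1 without any 1 WT library, N replicate 1 or 2, or NS replicate 1 or 2. With library totals in place of TMM scaling that number was 1 in both S and NS. Lower levels of btl and trh were also seen in N, where btl averaged 5.18 CPM beside 13.6 in WT, and trh 32.8 CPM beside 78.6. Neuron and glia markers, 7 in all, summed to 272 to 307 CPM in WT, 270 to 303 in N, 388 to 506 in S and 308 to 469 in NS. Most of that sum was nrv2, at 240, 250.5 and 220 CPM in WT and 293, 295 and 310 CPM in S. The neuronal elav was 27.6, 35.4 and 36.9 CPM in WT and 44.4, 17.45 and 14.8 CPM in S. The glial receptor moody rose in both S (2.37, edgeR adjusted p = 0.000404) and NS (2.20, 0.000685), with 3 of the 7 higher in S without S replicate 2 or NS replicate 3, and 2 without S replicate 3; in NS 2 were higher without NS replicate 3. The neuronal brp was 73.5 CPM in S replicate 1, at 0 in NS replicate 2 and at most 0.511 CPM in the other 10 libraries. The part of these cells in the ligand levels was not tested.

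Fat body RNA also varied between libraries, with a summed level of 6 larval serum and fat body genes of 11280 CPM in the first S library, 5932 CPM in the first NS library and 2737 CPM in the second N library, against 11.1 to 1005 CPM in the other 9. Leaving these 3 libraries out gave S to WT changes of 2.82 for Pvf1, 1.72 for Pvf2 and 1.63 for Pvf3 (edgeR adjusted p = 0.0033, 0.00382 and 0.0341), and 1.63 for Pvf1 in NS against WT (0.0287).

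**Figure D5:**
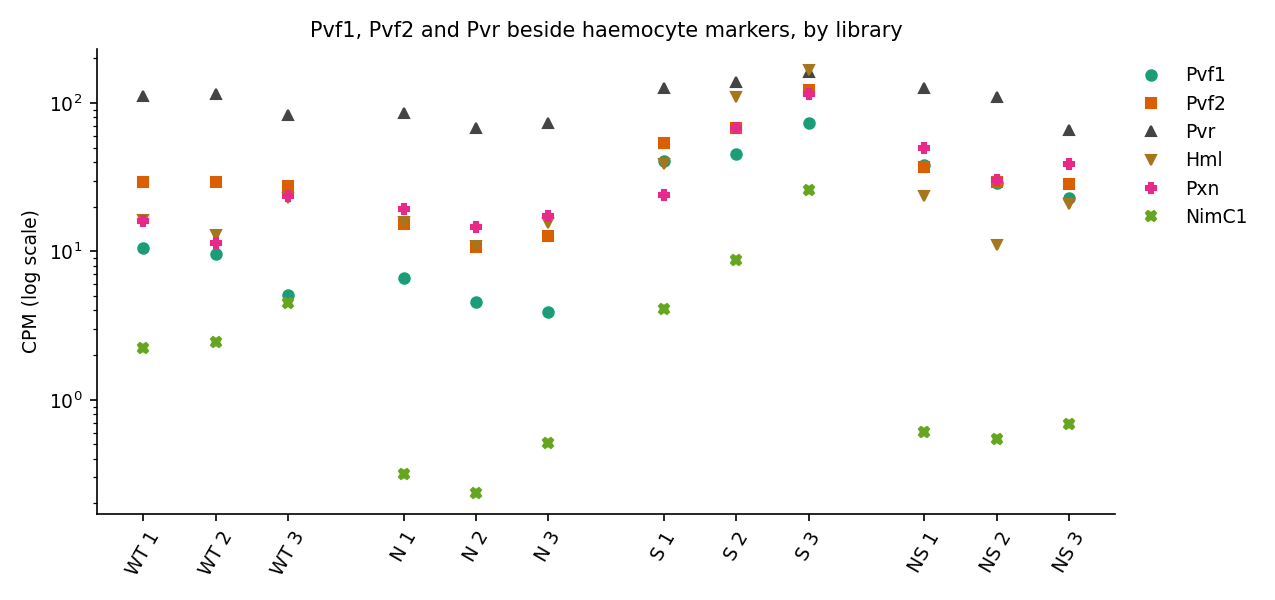
Level (CPM, log axis) of Pvf1, Pvf2 and Pvr beside the haemocyte markers Hml, Pxn and NimC1 in each of the 12 libraries. The plotted markers are high in S replicates 2 and 3, where Pvf1 and Pvf2 also have their highest values. Other listed haemocyte markers, among them ush and Ppn, do not share this order and are not plotted. Genes outside the list, such as Mmp1 and scaf, do share it. In NS, Pvf1 and Pxn are above every WT library, Hml overlaps WT and NimC1 is below 1 CPM.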

How the data were processed

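The authors deposited 1 table of raw read counts, with a whole number for each symbol in each library. Total RNA was Trizol-extracted and DNA-depleted, and the library kit for mRNA keeps strand, per the labels' protocols. TopHat2 2.0.9, Bowtie2 2.1.0, HTSeq, edgeR, DESeq and the build dm6 are named per the submitters' processing notes. The sources used here do not give what each did, the annotation, or whether counting used strand. If it did not, reads of overlapping genes could not be told apart. Of the symbols, 13320 matched the current Ensembl annotation of BDGP6, 4215 matched through a synonym and 181 did not match; 2 blank lines without counts were left out.

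Counts were filtered with filterByExpr, scaled by TMM and fitted with edgeR 4.0.16 in R 4.3.3, with 1 coefficient per group over all 12 libraries (8 residual degrees of freedom). The SE is the log2 change divided by the square root of F, and p-values were adjusted over all 9444 genes. The script was tested on simulated data. Exact permutation tests went through every split of the compared libraries, and scipy 1.17.1 was used to adjust their p-values. Intervals have a level of 95%. Levels per kb divide CPM by the union of annotated exons.

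The members and gene lists were chosen with earlier results of these data known. Named genes were the members, the 5 genes most alike to each, up to 4 called genes per list with the smallest adjusted p in S and NS against WT, neighbouring and overlapping genes, scrib, Notch and the markers; the called JNK genes beyond 4, and puc, were named after their values were seen. Some of these are not reported here. Whether replicate numbers pair libraries was checked from deviations from group means: the 3 same-numbered NS and S pairs had correlations, taken across genes, of 0.456, 0.493 and 0.327, and no other pair of groups had all 3 above 0.1. Alternatives were RLE size factors, library totals, no filter, DESeq2 1.42.0, a fit of the compared groups only, each library left out, a replicate block, WT replicate 1 as the sole WT library, NS and S replicate 3 left out, the 3 libraries with most fat body RNA left out, and offsets that remove a lowess trend on exon length (span 0.3), with and without the block.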

Additional observations from a re-analysis of the deposited data

How the results depend on the processing

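Changes of Pvf1 in S against WT, NS against N and S against N, and of Pvf2 and Pvf3 in S against N, stayed called in all 23 alternatives; Pvf1 in N against WT and NS against S, and Pvr in N against WT and NS against S, stayed uncalled in all 23. With a replicate block, Pvf2 in N against WT was -1.17, no longer called, and Pvf3 in NS against WT was -0.0024; no other call or direction of a member changed. With library totals Pvf2 in N against WT (-1.15) and Pvr in S against N (0.79) were lost, and Pvf2 and Pvf3 in NS against WT became -0.0147 and -0.0775. Without a filter Pvf2 in N against WT was lost at -1.13. DESeq2 called Pvf3 in N against WT (-1.12) and in NS against N (1.14). Fitted alone, the compared groups lost Pvf2 (-1.36) and Pvf3 (-1.63) in NS against S and called Pvf3 in N against WT (-1.10).

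With WT replicate 1 as the sole WT library, which is assumed to vary like the other groups, calls were lost for Pvf1 in NS against WT (1.51), Pvf2 in S against WT (1.48), N against WT (-1.17), NS against N (1.28) and NS against S (-1.37), Pvf3 in S against WT (1.78) and NS against S (-1.62), and Pvr in S against N (0.91). The interactions of Pvf1 (0.22) and Pvr (0.0232) changed sign there, uncalled. Without NS replicate 3 and S replicate 3, Pvf3 in N against WT (-1.12) and NS against N (1.50) and Pvr in NS against N (0.64) were called, while uncalled signs turned for Pvr in NS against WT (0.18) and the interactions of Pvf1 (0.40), Pvf2 (0.30) and Pvr (0.29). Leaving out the 3 libraries with most fat body RNA, which leaves fewer samples, lost Pvf2 in N against WT (-1.04) and NS against N (1.05), Pvf3 in NS against S (-1.77) and Pvr in S against N (0.92), and gave -0.14 for Pvf3 in NS against WT.

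Offsets for exon length, without and with the block, called Pvf3 in N against WT (-1.14, -1.12) and NS against N (1.59, 1.59), Pvr in S against WT (0.83, 0.80) and in NS against N (0.96, 0.94). They gave uncalled values of 0.49 and 0.46 for Pvr in NS against WT and 0.13 and 0.14 for its interaction. With each library left out in turn, ranges were -1.29 to -1.03 for Pvf2 and -1.21 to -0.93 for Pvf3 in N against WT, 0.34 to 0.56 for Pvr in S against WT, -0.14 to 0.38 for Pvf3 and -0.24 to 0.18 for Pvr in NS against WT. They were 1.16 to 1.43 for Pvf2, 0.96 to 1.48 for Pvf3 and 0.20 to 0.62 for Pvr in NS against N, -1.59 to -0.92 for Pvf2 and -1.81 to -1.29 for Pvf3 in NS against S, and 0.79 to 1.01 for Pvr in S against N. Interactions ranged from -0.30 to 0.23 (Pvf1), -0.44 to 0.23 (Pvf2) and -0.27 to 0.16 (Pvr). The cause of these shifts was not tested.

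Counts of called genes ran from 70 to 1443 around 299 in N against WT, from 704 to 4554 around 2209 for S and from 665 to 3233 around 2326 for NS against the same control, 289 to 1658 around 745 in NS against N, 45 to 1246 around 362 in NS against S, 619 to 3477 around 1353 in S against N and 10 to 862 around 125 for the interaction. With the longest transcript as length the ligand to receptor ratio was 1.03 in WT and 0.657 in N. The lowest count of a member in a library was 90.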

Other observations

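Ligands and receptors of other tyrosine kinase pathways changed in the same discs. The FGF-like ligand ths was higher in S against WT (log2 1.56 ± 0.394, edgeR adjusted p = 0.0171) and stood at -0.997 in NS against WT (edgeR adjusted p = 0.0858). Its relative pyr fell in NS against WT (-1.08 ± 0.226, edgeR adjusted p = 0.00677), as did their receptor htl (-1.12 ± 0.235, 0.00696). Of the 6 myoblast and muscle markers, among which htl is counted, 4 fell in NS against WT (2 without WT replicate 2), with a median of -0.99. Their summed level was 118 to 171 CPM in NS, 163 to 178.5 CPM in N and 246 to 284 CPM in WT. The list's median was -1.02 in N against WT and -0.07 in NS against N, so N shared the lower level. Mean htl was 28.5 CPM in WT, 16.3 in N and 13.1 in NS, and mean pyr was 28.2, 17.8 and 13.3 CPM. The part of these markers' cells in the falls of pyr and htl was not tested. The EGF receptor ligand spi rose in both S and NS against WT (0.69 ± 0.167 and 0.74 ± 0.167, edgeR adjusted p = 0.0142 and 0.0100). Of 7 tested ligands, 2 rose in S against WT (ths and spi) and 0 fell. The number that rose was 0 without WT replicate 1 or 2, and 1 without S replicate 1 or with library totals in place of TMM scaling. Leaving out NS replicate 3 gave 5 that rose and 1 that fell. In NS against WT 1 rose and 1 fell. The number that rose was 0 without WT replicate 1 or with library totals, and 2 without NS replicate 3. Among 17 other tested receptor tyrosine kinases, 0 rose and 1 fell in S against WT, and 1 rose and 6 fell in NS against WT. The FGF receptor btl, also among the tracheal markers, fell in both (-2.20 ± 0.315 and -2.16 ± 0.315, edgeR adjusted p = 0.000761 and 0.000873), and Ret rose in NS (2.43 ± 0.418, edgeR adjusted p = 0.00235). Mean btl was 13.6 CPM in WT, 5.18 in N, 2.96 in S and 3.03 in NS. In S against WT 3 rose and 7 fell without NS replicate 3, 2 fell without WT replicate 2 or NS replicate 2, and 1 rose without S replicate 2 or 3; in NS against WT 2 rose and 5 fell without NS replicate 3.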
